A study of Gallus gallus with 24 samples.

Results

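The ascending set described here consists of 75 genes of the chicken interdigit, out of 30108 genes in the table. Their mean level on a log2 scale was higher at each later time of a short course of development. The tissue was interdigital region 3 of the hindlimb, taken from embryos after 7 days of incubation plus 4, 6, 8 or 11 hours. All embryos were otherwise untreated as far as the labels say, and no strain or sex is given. Each time has 6 libraries; whether a library is 1 embryo is not stated in the labels. Members were chosen by their measured levels in 21 of the 24 libraries: all 6 of the 4 h group, 5 of the 6 h group, 4 of the 8 h group and all 6 of the 11 h group. The 3 libraries left out, 6 h replicate 5 and 8 h replicates 2 and 5, are those with under 1000000 reads.

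The interdigit is the mesenchyme between neighbouring digits. In birds with free toes it is removed by programmed cell death, in which bone morphogenetic proteins act as inducing signals and oxidative stress in the tissue has a known part. The study's title places the time course in that setting, and the question addressed here is which transcripts stepped up in the same direction throughout the window. The identifiers are Ensembl gene IDs that the sources used here do not pair with names: none of the 30108 occurs in the available reference table. The members can therefore not be assigned to pathways, and the labelled tissue could not be checked against marker genes. For the same reason 2 members are given by identifier and the others by rank.

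Levels are in CPM, reads per 1000000 reads of the library, and differences are on the log2(CPM + 1) scale, on which the change of a weakly expressed gene comes out too small. Of the 30108 genes, 7008 had a mean of 10 to 1000 CPM, 6061 of these had a pooled SD within the times under 0.6 log2 units, and 5718 of those also differed by less than 0.4 between 2 kinds of library. These kinds are defined by ENSGALG00010011988, which lay at 533.5 to 1024.4 CPM in 13 libraries and at 3.62 to 9.42 CPM in the other 11, with the division set at 50 CPM. The 5718 genes are called the pool below. Group means of log2(CPM + 1) stepped up at every time in 180 of them, though means in CPM need not follow that order. In 75 of the 180 the difference of 11 h minus 4 h was at least 0.4. These 75 are 1.31% of the pool.

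The number of members was close to what the same limits gave for other orders of the times. The 4 time labels can be given to the 4 groups in 24 orders, with every library staying in its group. Differences between the groups remain in every order, so these counts are not what shuffled libraries would give. Across these orders 0.735% to 2.75% of the pool met the limits, with a mean of 83.6 genes and a median of 76. The order 4 h, 6 h, 8 h, 11 h, with its 75 genes, was exceeded by 12 orders and was above 11. The reverse order, means stepping down at each time, held 92 genes. The count depended on scaling. After division by TMM factors, which correct for differences in library composition, 121 genes met the limits, all 75 members among them, against a mean of 85.8 over the 24 orders; 4 orders then had more and the reverse order had 62. With all 24 libraries the count was 46, of which 31 were members, and 22 orders had more.

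**Figure D1:**
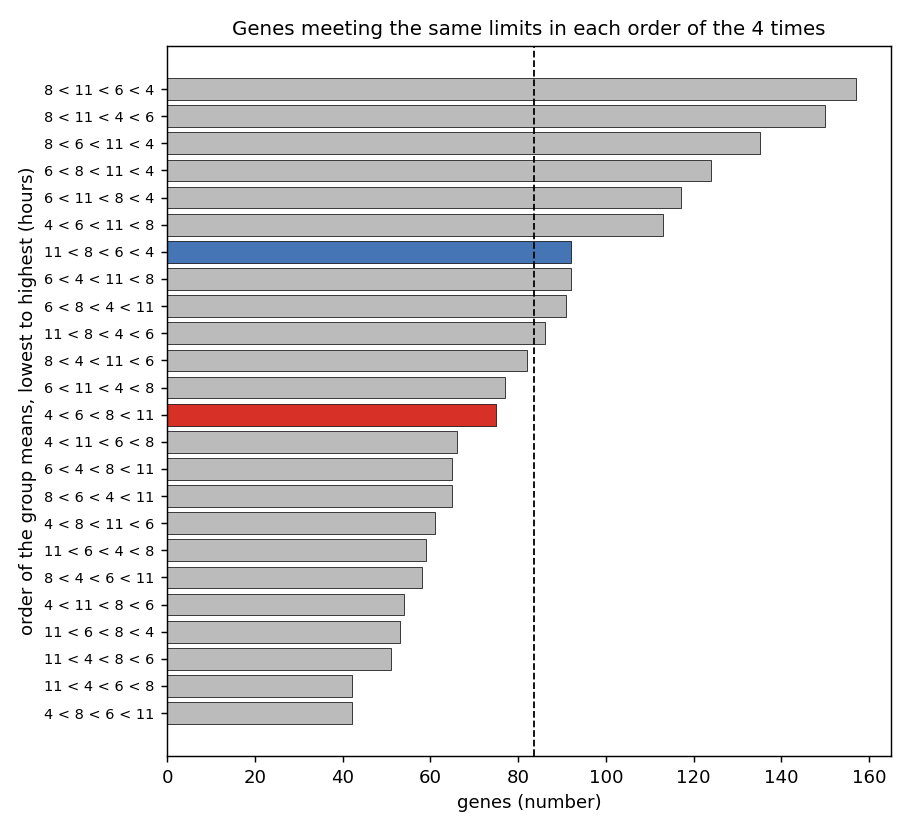
Number of genes (x axis) whose group means followed each of the 24 possible orders of the 4 times (y axis, lowest to highest), under the same limits on level, spread and size. The order in time (red) holds 75 genes and its reverse (blue) 92; the dashed line marks the mean of 83.6, and the largest count is 2.75% of the pool.

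Within the set, differences were small. The values that follow describe the choice itself and carry no test. The difference of 11 h minus 4 h ran from 0.40 to 1.18 log2 units with a median of 0.55, that is 1.32-fold to 2.27-fold with a median of 1.47-fold. Only 3 members reached 2-fold and 45 stayed under 1.5-fold. The pooled within-time SD of the members had a median of 0.38 and a range of 0.24 to 0.58. The difference exceeded 1 such SD in 69 members and 2 SDs in 13. In the whole pool the median difference of 11 h minus 4 h was -0.04.

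All 75 members overlapped between neighbouring times: in 0 of them did every library of one time lie above every library of the time before. The share of the pool is not given for neighbouring times, so nothing particular to the members is read from this. Between the ends of the course, every 11 h library lay above every 4 h library in 9 of the 75 members, where 13 of the 5718 genes of the pool did so (0.227%); both counts rest on the contrast that chose the members. In a fit of all 24 libraries and 13783 genes, 0 members passed an adjusted p under 0.05 for 11 h against 4 h (limma, Benjamini-Hochberg), as did 0% of all genes tested. Their smallest adjusted p was 0.52. At an unadjusted p under 0.05 and a higher level at 11 h there were 52 members and 2.23% of all genes. For a slope per hour, the members' smallest adjusted p was 0.35 and 0% of all genes were called higher (limma). Of the members 58 had a positive slope at an unadjusted p under 0.05, as did 2.65% of all genes. Nothing about the members can be read from these shares, since the same libraries had chosen them.

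As a set, the members averaged 4.68 ± 0.13 log2(CPM + 1) at 4 h (SD, n = 6), 4.95 ± 0.16 at 6 h (n = 5), 5.11 ± 0.09 at 8 h (n = 4) and 5.28 ± 0.10 at 11 h (n = 6). The pool averaged 5.49 ± 0.07, 5.44 ± 0.04, 5.44 ± 0.03 and 5.45 ± 0.04 in the same libraries. Library values of the members ran from 4.59 to 4.93 at 4 h, from 4.68 to 5.06 at 6 h, from 5.03 to 5.24 at 8 h and from 5.11 to 5.38 at 11 h. The 11 h libraries thus lay above all those at 4 h and at 6 h, and overlapped with 8 h, where replicate 1 at 5.24 was above the lowest 11 h library. Summed over the set, the members' share of a library's reads averaged 0.308% in the 4 h group, 0.378% in the 6 h group, 0.415% in the 8 h group and 0.457% in the 11 h group. In bulk tissue, a change in how many cells carry a transcript and a change in its amount per cell cannot be told apart.

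Not every library sat where its time would place it. At 4 h, replicate 4 was at 4.93 while the other 5 lay between 4.59 and 4.70, and 33 of the 75 members were nearer to their 11 h mean than to their 4 h mean in it, against 10 to 19 in the others. This library has the most reads of the series, 8134730. At 6 h, replicate 4 was at 4.68, within the range of the 4 h libraries, while the other 4 used lay between 4.95 and 5.06. Without these 2 libraries 76 genes met the limits, 53 of them members. With them left out 15 orders of the times held more genes than the order in time.

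**Figure D2:**
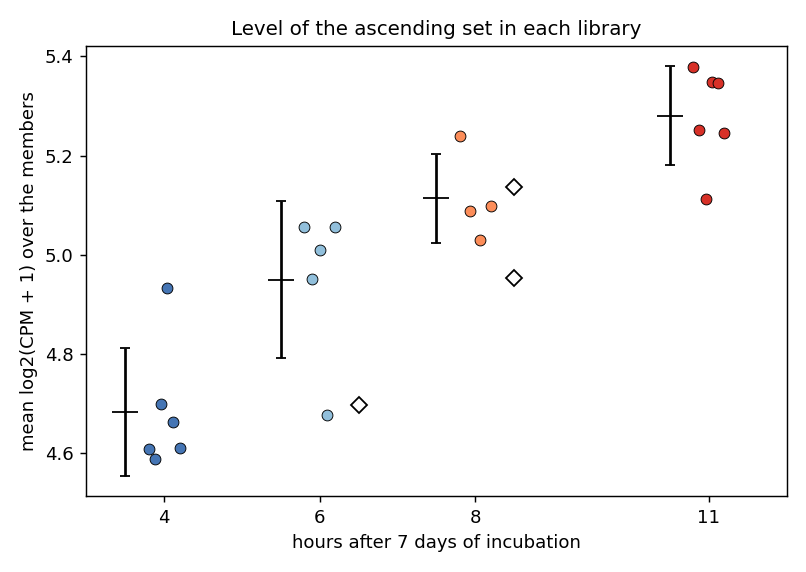
Mean log2(CPM + 1) over the 75 members (y axis) in each library against hours after 7 days of incubation (x axis). Filled circles are the 21 libraries that chose the members, bars are their mean and SD, and open diamonds are the 3 libraries not used; replicate 4 at 4 h (4.93) and replicate 4 at 6 h (4.68) stand away from the rest of their times.

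The median step of the members was largest from 4 h to 6 h, which describes the choice and was not tested. The step of 6 h over 4 h had a median of 0.25 log2 units, the step of 8 h over 6 h one of 0.13 and the step of 11 h over 8 h one of 0.15. Per hour these medians were 0.12, 0.07 and 0.05, over gaps of 2, 2 and 3 hours. The limits took no account of these gaps, so similar steps give a lower rate over the longest one. The largest of the 3 steps was the one from 4 h to 6 h in 40 members, from 6 h to 8 h in 18 and from 8 h to 11 h in 17. By 6 h the median member had covered 44.3% of its difference and by 8 h 72.2%. The course was even in few members: all 3 steps reached 0.1 log2 units in 26, while in 28 the smallest step was under 0.05.

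Time was tied to library number in part of this course. The libraries carry running numbers in the labels, which fall into a lower and an upper range. All libraries at 11 h and 4 h are in the lower range, whereas 4 of the 5 used at 6 h and 3 of the 4 used at 8 h are in the upper range. What the numbers stand for is not stated. The step from 4 h to 6 h thus goes along with a change of range in most 6 h libraries. Time and range cannot be told apart in those. In the lower range the members averaged 5.06 in the single 6 h library (replicate 1) and 5.10 in the single 8 h library (replicate 6), both below the 11 h libraries (5.11 to 5.38) and above the 4 h libraries (4.59 to 4.93). For single members this order was loose: the 6 h library lay between the 4 h and 11 h means in 51 of the 75, the 8 h library in 40, and all 4 values were in order in 11. In the upper range the 8 h mean was above the 6 h mean in 63 members, with a median difference of 0.18. All libraries compared here within the ranges also chose the members, so these values follow in large part from the choice. No share of the pool is set beside these counts, so nothing particular to the members is read from them. In limma fits with the range as a term, 0 genes passed an adjusted p under 0.05, as without it. This held for 11 h against 4 h and for the slope per hour. For 11 h against 4 h the term could not change the fitted difference, since all these libraries are in the lower range. Nothing about the range is read from that fit. Whether library number has a part in the course was itself not tested.

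The difference can also be given within each kind of library set apart by ENSGALG00010011988, from the same values that chose the members. Among libraries at the high level, 4 at 11 h and 3 at 4 h, the median difference of 11 h minus 4 h was 0.70 and all 75 members were higher at 11 h. Among those at the low level, 2 at 11 h and 3 at 4 h, it was 0.45 and 73 members were higher. In 29 members it reached 0.4 in both kinds. These counts follow in large part from the choice, and no share of the pool is set beside them. Whether the 2 kinds differ was not tested.

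**Figure D3:**
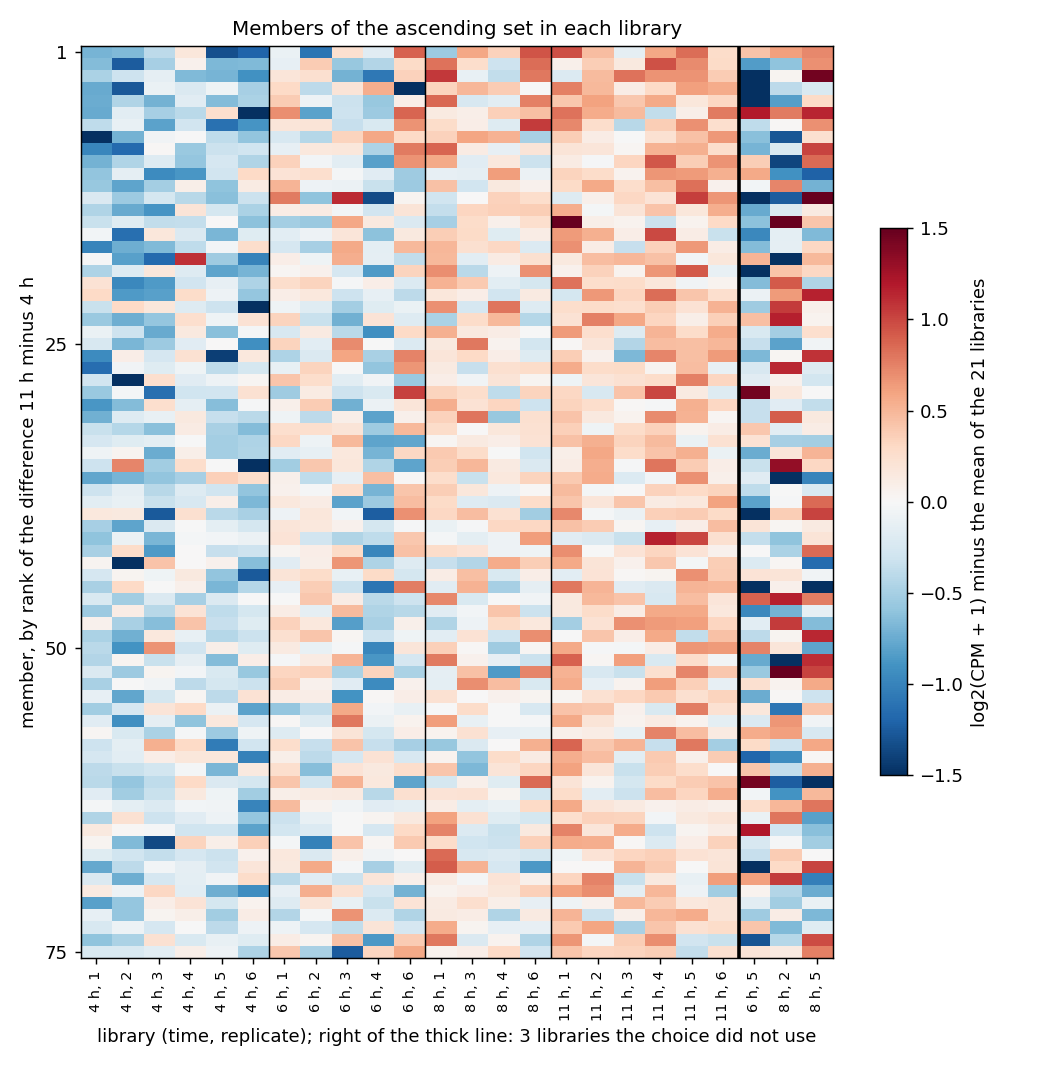
Level of each of the 75 members (rows, ranked by the difference of 11 h minus 4 h) in each library (columns, grouped by time), as log2(CPM + 1) minus the member's mean over the 21 libraries; the colour scale ends at 1.5 in either direction. The 4 h columns are mostly blue and the 11 h columns mostly red, as the choice of members requires; the 3 libraries right of the thick line were not used in it and have the fewest reads.

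The member with the largest difference was ENSGALG00010024739. Its level at 4 h had a lowest, median and highest value of 8.01, 13.1 and 24.3 CPM. At 6 h it was at 20.1, 9.57, 25.6, 19.0 and 40.7 CPM in replicates 1, 2, 3, 4 and 6, and at 8 h at 14.4, 32.8, 27.7 and 42.3 CPM in replicates 1, 3, 4 and 6. At 11 h the lowest, median and highest values were 19.5, 31.4 and 43.2 CPM. Each time overlapped with the next, and the lowest 11 h library was below the highest 4 h library. The means were 31.9 ± 8.65 CPM at 11 h and 13.9 ± 5.94 CPM at 4 h (SD, n = 6 each), a 2.27-fold difference on the log2(CPM + 1) scale, with a pooled SD of 0.57 log2 units. In the libraries left out it was at 33.5 and 36.2 CPM at 8 h, on 30 and 25 reads, and at 29.4 CPM at 6 h, on 22 reads. Its difference of 11 h minus 4 h was 1.48 in libraries at the high level of ENSGALG00010011988 and 0.68 in the others. Fitted over all 24 libraries with limma, 11 h minus 4 h came to 1.24 ± 0.30 log2 units (SE), with an adjusted p of 0.52. This fit used TMM factors, whereas the 2.27-fold difference did not.

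ENSGALG00010024146 had the largest difference relative to its spread, 2.79 pooled SDs, and was number 4 of the set by mean level. Its lowest, median and highest values at 4 h were 75.7, 86.0 and 113.5 CPM. At 6 h it was at 166.1, 120.8, 102.0, 85.5 and 137.2 CPM in replicates 1, 2, 3, 4 and 6, and at 8 h at 232.9, 107.6, 113.8 and 216.5 CPM in replicates 1, 3, 4 and 6. At 11 h the lowest, median and highest values were 143.8, 168.6 and 194.2 CPM. The 11 h libraries all lay above the 4 h libraries. The 8 h libraries, by contrast, fell into a pair near 110 CPM and a pair above 200 CPM, so that the mean of 167.7 ± 66.2 CPM (SD, n = 4) lies at none of them. The means were 170.4 ± 18.8 CPM at 11 h and 88.6 ± 14.1 CPM at 4 h (SD, n = 6 each), a 1.92-fold difference. In the libraries left out it was at 71.6 and 156.3 CPM at 8 h, on 64 and 108 reads, and at 29.4 CPM at 6 h, on 22 reads. The lower 8 h value and the 6 h value are both below every 4 h library. The limma fit of all 24 libraries put 11 h minus 4 h at 1.00 ± 0.30 log2 units (SE), with an adjusted p of 0.95. That fit used TMM factors, whereas the 1.92-fold difference did not. Over all 24 libraries the slope per hour of this gene was 0.16 ± 0.04 log2 units (SE, adjusted p = 0.48, limma). In the 21 libraries alone it was 0.14 ± 0.03 (SE, adjusted p = 0.039, limma), but the same libraries had chosen the gene, so that p carries no weight.

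**Figure D4:**
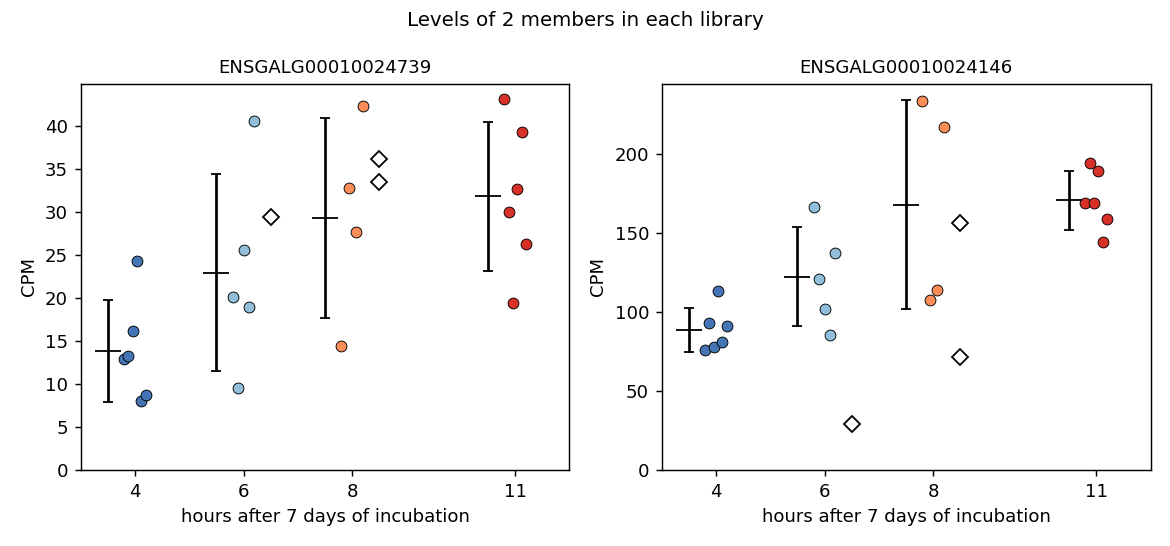
CPM of ENSGALG00010024739 (left) and ENSGALG00010024146 (right) in each library against hours after 7 days of incubation; circles are the libraries used to choose the members with their mean and SD, diamonds the 3 not used. For the first gene the times overlap throughout, and for the second the 11 h libraries (143.8 to 194.2 CPM) clear the 4 h libraries (75.7 to 113.5 CPM).

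The second member by rank averaged 19.6, 28.5, 41.1 and 40.8 CPM at 4, 6, 8 and 11 h and had covered 97.4% of its log2 difference by 8 h. Its mean in CPM was thus lower at 11 h than at 8 h, while its mean log2(CPM + 1) was 5.35 against 5.32. The third averaged 14.2, 19.2, 28.7 and 29.7 CPM. By contrast the twelfth by rank, at 30.3, 36.8, 41.7 and 52.2 CPM, had a smallest step of 0.20 log2 units, the highest such value in the set. The most abundant member averaged 664.4 ± 73.8 CPM at 4 h (SD, n = 6), 859.1 ± 224.7 at 6 h (n = 5), 907.0 ± 124.0 at 8 h (n = 4) and 985.5 ± 135.3 at 11 h (n = 6). Its 11 h libraries, 810.4 to 1154.8 CPM, lay above its 4 h libraries, 547.1 to 752.3 CPM, for a 1.48-fold difference.

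Members lay at lower levels than the pool, with a median of 28.5 CPM against 38.9 CPM. Of the members 54.7% were under 30 CPM, against 38.3% of the pool, and 5.33% were at 100 CPM or more, against 17.8% of the pool. Depth in the 21 libraries was 1794673 to 8134730 reads. The median member rested on 127 reads in its median library, and the smallest number of reads of any member in any of these libraries was 6. Counting error alone came to a median of 0.13 log2 units, or 11.1% of the within-time variance, and to at most 33.2% in any member. The rest of that variance is spread between libraries beyond counting. Within times the members' median SD was 0.38, 0.42, 0.35 and 0.30 log2 units in the 4, 6, 8 and 11 h groups, against 0.32, 0.34, 0.28 and 0.28 in the pool. A minimum difference is met more easily where the spread is larger. The lower level and larger SD may therefore follow from the choice, which was not tested.

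Genes near the limits were little different from those inside. The nearest difference of 11 h minus 4 h inside the limit was 0.40 and the nearest outside 0.39, the smallest step inside was 0.005 and the nearest outside -0.001, and the largest pooled SD inside was 0.58 with 0.61 outside. The condition that kept out most genes by itself was the order of the means, with 181, followed by the size of the difference with 105. Leaving out 1 of the 21 libraries at a time, 51 to 74 of the 75 remained members, and 7 remained in all 21 repeats. Membership depended more on the use of means: with group medians in their place 59 genes met the limits, 32 of them members. The 7 that remained in all 21 repeats had ranks between 4 and 40 by difference. ENSGALG00010024739 remained in 17 repeats and ENSGALG00010024146 in 19.

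The libraries left out give the same measure independently of the choice. The members averaged 4.95 and 5.14 log2(CPM + 1) in 8 h replicates 2 and 5 and 4.70 in 6 h replicate 5. The difference of 8 h minus 6 h among these 3 had a median of 0.24 over the members, against -0.08 over the pool. It was above 0 in 49 of the 75 members (65.3%), against 45.4% of the pool. With either 8 h library alone the median over members was 0.25 or 0.32, against -0.07 or -0.03 over the pool. Among the 92 genes with means in the reverse order it was -0.02, and 45 were higher at 8 h, so these did not mirror the members. The 3 libraries have 690847 to 894326 reads and the median member 17 to 28 reads in each. All 3 are at the high level of ENSGALG00010011988 and in the upper number range. The difference was not tested: an exact permutation of 1 library at 6 h and 2 at 8 h cannot give a p under 0.333. With 1 library at 6 h, library and time cannot be told apart.

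**Figure D5:**
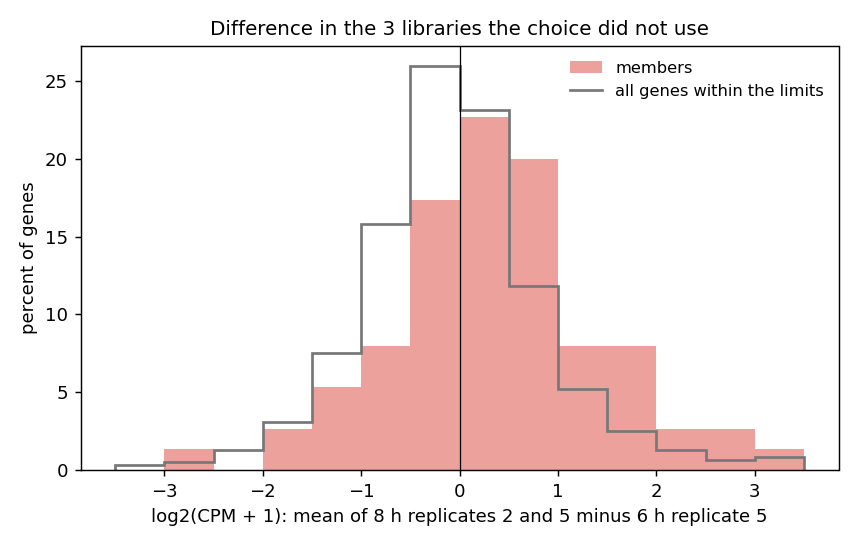
Distribution of the difference of 8 h (mean of replicates 2 and 5) minus 6 h (replicate 5) in log2(CPM + 1), x axis, as percent of genes, y axis, for the 75 members (red) and the 5718 genes of the pool (grey line); the end bins also hold values beyond them. The members' median is 0.24 and that of the pool -0.08.

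Within times, the members varied together slightly more than other genes did. The choice used the group means, the size of the spread and a limit on the difference between the kinds of library. The limits on spread and on that difference also held for the pool. Correlation between genes was not itself a condition, but the group means and the deviations come from the same libraries. Whether the members varied together because of the choice was not tested. Over the 2775 pairs of members the deviations from the time means across the 21 libraries had a mean Pearson correlation of 0.088, against 0.021 over all pairs of the pool, and 64.0% of the pairs were positive, against 53.1%. The mean over members fell to 0.061 without 6 h replicate 4, against 0.022 over the pool. Without 4 h replicate 4 it was 0.063, against 0.021. Both libraries stood away from their times. These correlations are a description: the pairs share the same libraries and depth, and both averages are weak. Of the 75 members, 68 correlated positively with the mean of the other members and 13 above 0.5, ENSGALG00010024146 among them at 0.53. The same count was not made for genes of the pool, so nothing particular to the members is read from it. The closest pair, ranked 39 and 42 by difference, reached 0.84 and the most opposed pair -0.67.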

How the data were processed

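The authors deposited 1 table with 1 column per library, made by Lasy-Seq, per the labels' protocols. Salmon, BWA 0.7.17-r1188 and fastp 0.21.0 appear in the submitters' processing notes. Their genome build was not given in the sources used here. Values were deposited as natural log values, ln(CPM + 1): exp(value) - 1 sums to 1000000 in every column. Of 406811 values above 0, 99.9988% were whole reads within 0.01 read, so reads were recovered, 690847 to 8134730 per library.

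The members and the lists were chosen with earlier results of these data known. The rule was applied in Python 3.11.15 to the deposited CPM, with no further scaling. In place of the shuffled time labels that the rule asks for, the 24 orders of the labels over whole groups were counted. Single libraries were not shuffled between times. Tests across genes used limma 3.58.1 in R 4.3.3 with an intensity trend on log2(CPM/TMM factor + 1), because the unit is a log scale, over 13783 genes with at least 2.26 CPM (10 reads at the median depth) in 6 libraries and 15 reads in all. TMM (trimmed mean of M values) trimmed 30% of M and 5% of A. P-values were adjusted by Benjamini-Hochberg at 0.05. Rule and fit were tested on simulated data.

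With no names, the rule for named genes gave 2 identifiers, the member of largest difference and that of largest difference per pooled SD; further members given by rank were picked after their values were seen. The lists of pathway and marker genes were not used. Where the labels do not say that libraries are separate embryos, p-values measure the spread between these libraries, and counting intervals cover counting error only. Replicate numbers were not treated as pairs in the main fits. Among 36 same-numbered pairs, deviations correlated above 0.1 in 3, and at most 0.12. No differently numbered pairs are set beside these, and same-numbered 4 h and 11 h libraries lie close in the running numbers. Pairing is therefore not excluded. Alternatives were other scaling, pseudocounts, limits and libraries.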

Additional observations from a re-analysis of the deposited data

Results flagged for a closer look

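In 16 sets of 4 to 6 libraries, 1 library was looked for that lay away from its set (the members' mean level, their summed CPM and the 2 identified members at each time). Such a library was found in 3 sets, where chance gives about 1 in 20 for a single set. The sets share genes and libraries, so the count cannot be set against that rate. The members' mean log2(CPM + 1) was 4.93 in replicate 4 at 4 h, against 4.59 to 4.70 in the other 5 libraries. The members' summed level in the same library was 3638 CPM, against 2896 to 3042 CPM. At 6 h the members' mean was 4.68 in replicate 4, against 4.95 to 5.06 in the other 4 libraries used. Why these libraries differ was not tested.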

How the results depend on the processing

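The number of members, 75 or 1.31% of the pool, moved by over 1.5 times under 4 alternatives: 121 (2.10%) with TMM factors, 46 (0.915%) with all 24 libraries, 49 (0.857%) with a minimum difference of 0.5, and 1.96 times as many genes with no filter on mean CPM, though a smaller share (0.976%) of a larger pool of 15056. It was 60 to 94 (1.05% to 1.65%) with 1 library left out. Of the orders of the times, 12 held more genes than the order in time, against 4 with TMM factors and 22 with all 24 libraries; these settings, like the one without 4 h replicate 4 and 6 h replicate 4, were chosen after seeing the data. The cause was not tested. The median difference of 11 h minus 4 h over members was 0.53 to 0.60 with 1 library left out and 0.70 within libraries at the high level of ENSGALG00010011988. The difference in the libraries not used to choose the members was 0.25 to 0.32 with 1 of the 8 h libraries left out, and 0.34 with TMM factors, against 0.03 over the pool. The mean correlation between members was 0.061 to 0.096 with 1 library left out.

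For 11 h against 4 h limma called 0 genes with all 24 libraries. A fit restricted to the 12 libraries of both times called 5 of 13783 genes, among them 2 of the 75 members. These 12 libraries and this contrast had also chosen the members, so nothing about the members can be read from the 2. The test of the slope called 1 gene at a pseudocount of 5 and 1 with the 21 libraries. With 1 library left out both tests gave 0 to 1. The 1 appeared in both without 6 h replicate 4. For the slope, 1 also appeared without 6 h replicate 6 or 11 h replicate 2. With the replicate number as a block, 0 genes passed in either test. At an unadjusted p under 0.05, 308 of 524 genes were higher at 11 h with TMM factors, against 231 of 549 without, and 365 of 623 against 244 of 629 had a positive slope.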
